A study of Mus musculus with 8 samples.

Results

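The genes described here are the writers, readers and erasers of Polycomb repression: 29 genes of Polycomb repressive complex 2 (PRC2), Polycomb repressive complex 1 (PRC1) and the H3K27 demethylases, out of 20660 genes that the arrays could name. They were chosen by gene symbol, through the RefSeq accession that the array design gives each probe. Their values did not enter that rule, but the members were set with earlier results of these data known. All 29 genes had a probe (43 probes in all), and 17 genes had a single one. Of the 29, 11 belong to PRC2, 15 to PRC1 and 2 are H3K27 demethylases, and Kdm2b, an H3K36 demethylase that brings PRC1 to CpG islands, is described apart.

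Expression was measured in mouse neurospheres, clusters of neural stem and progenitor cells grown in suspension, on 8 single-colour Agilent arrays. The labels give 3 wild type arrays in floating culture (WT floating), 3 arrays of HP1gamma KO cells in floating culture (KO floating) and 2 arrays of HP1gamma KO cells in adherent culture (KO adherent). Each sample was grown from 1 embryonic brain at E14.5, from cells of the ganglionic eminence, and the RNA came from quaternary neurospheres. All 3 groups had Neurobasal medium with B-27, EGF at 20 ng/ml, bFGF at 20 ng/ml and heparin at 5 µg/ml for 7 days. The labels do not state the kind of KO allele, the strain or what made a culture adherent, and the described protocol names low-attachment plates for all samples. There is no adherent wild type, so culture was compared within KO only.

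PRC2 puts methyl groups on lysine 27 of histone H3. Its catalytic subunit is Ezh2 or Ezh1, held by Eed and Suz12, and in neural progenitors the mark keeps developmental and neuronal genes silent until they are needed. PRC1 carries the ubiquitin ligases Ring1 and Rnf2. Its CBX subunits read the H3K27 mark and its PHC subunits polymerise to compact chromatin. Kdm6a and Kdm6b take the mark off again. HP1gamma, the product of Cbx3, reads a different mark, methylated lysine 9, and the series title places a loss of H3K27me3 at neuronal genes under its deficiency. The arrays bear on the RNA of the machinery, not on the histone mark or on protein.

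All levels below are log2 processed intensity relative to the 75th percentile of the same array, so a value of 1 is 2-fold above that percentile. Each probe has its own response, and levels of different genes are not compared. The targeted gene Cbx3 had 5.83, -2.17 and 5.95 on WT floating 1, 2 and 3, -1.86, -2.76 and -1.75 on KO floating 1, 2 and 3, and -2.03 and 5.91 on KO adherent 1 and 2. WT floating 2 and KO adherent 2 thus opposed their labels, and the other Cbx3 probe divided them likewise. Where the probes lie in relation to the altered stretch of Cbx3 was not stated in the labels. Each genotype result is therefore given with all 8 arrays as labelled and again without these 2 arrays. The 6-array comparison sets the 4 remaining KO arrays of both cultures against WT floating 1 and 3, and is called the joined comparison. Its groups rest on the labels of arrays chosen by their Cbx3 level, and for KO adherent 1 culture cannot be told apart from genotype. KO floating 1 and KO adherent 1 share a number, and the labels do not state whether they share a brain. They name separate brains as samples, without tying numbers to litters or days.

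Several features of the whole arrays bear on the members. The 8 arrays lay on 1 slide, their 75th percentile of intensity ranged from 616 to 865, and 44.5% to 55.4% of spots were well above background. All 10 neural stem markers were above background on all arrays. Of the 4 microglial markers, Csf1r was above background on all arrays, and Aif1, Cx3cr1 and Ptprc on none. Just WT floating 1 and KO floating 3 had Ddx3y, a Y-linked gene, above background, so sex differed within both floating groups. The immediate early gene Nr4a1 had 4.50 on WT floating 2 and 4.83 on KO floating 2, and at least 7.43 on all other arrays. KO floating 3 had 144 of 22454 probes (0.641%) that lay more than 4 log2 units below every other array while above background on the other 7, against 0 to 3 such probes on each other array, and 2 member probes were among them.

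As labelled, no member differed between KO and WT floating neurospheres past the threshold, a Benjamini-Hochberg adjusted p of 0.05 in limma. The count was 0 of 27 members tested, where 0.0044% of all 22705 features were called. An unadjusted p under 0.05 (limma) was found for 0 members, against 393 of the 22705 features. The smallest member adjusted p was 0.814. Of the 27 members, 9 had a positive and 18 a negative log2 difference, with a median of -0.04 against -0.03 over all features. The 95% interval of the KO minus WT difference lay within 2-fold for 21 of the 27. It reached beyond 2-fold for Ezh1, Eed, Pcgf5, Pcgf6, Cbx8 and Phc2, so for those 6 genes these arrays do not limit a change to under 2-fold. The other 2 members, Cbx7 and Pcgf2, did not pass the background filter in this comparison.

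In the joined comparison, 1 of 27 members tested was called (3.7%), against 17.3% of all 21506 features. The called member was Phc2, which fell. Of all features, 8.34% were called lower and 8.96% higher. A further 4 members had an unadjusted p under 0.05 in limma without passing after adjustment, Ezh1, Eed, Pcgf1 and Pcgf5, each with a negative difference. With Phc2 these were 5 of 27 members, against 8121 of 21506 features, a smaller share than over all features. In all, 10 members had a positive and 17 a negative difference, with a median of -0.05 against -0.07 over all features. The values of KO and WT arrays did not overlap for 7 of the 27 members (25.9%), a share below the 53.4% of all features. For KO floating against WT floating 1 and 3, in a fit that kept KO adherent 1 for the filter and the spread, 0 of 28 members were called. Of its 26028 features, 0.177% were called (0.0961% higher and 0.0807% lower). The values did not overlap for 9 of the 28 members (32.1%), against 51.1% of all features. Phc2 had the smallest member adjusted p (0.133, limma). With KO adherent 1 taken out of that fit, 0 of 27 members and 2.14% of 21516 features were called. The limma adjusted p of Phc2 was then 0.0927.

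**Figure D1:**
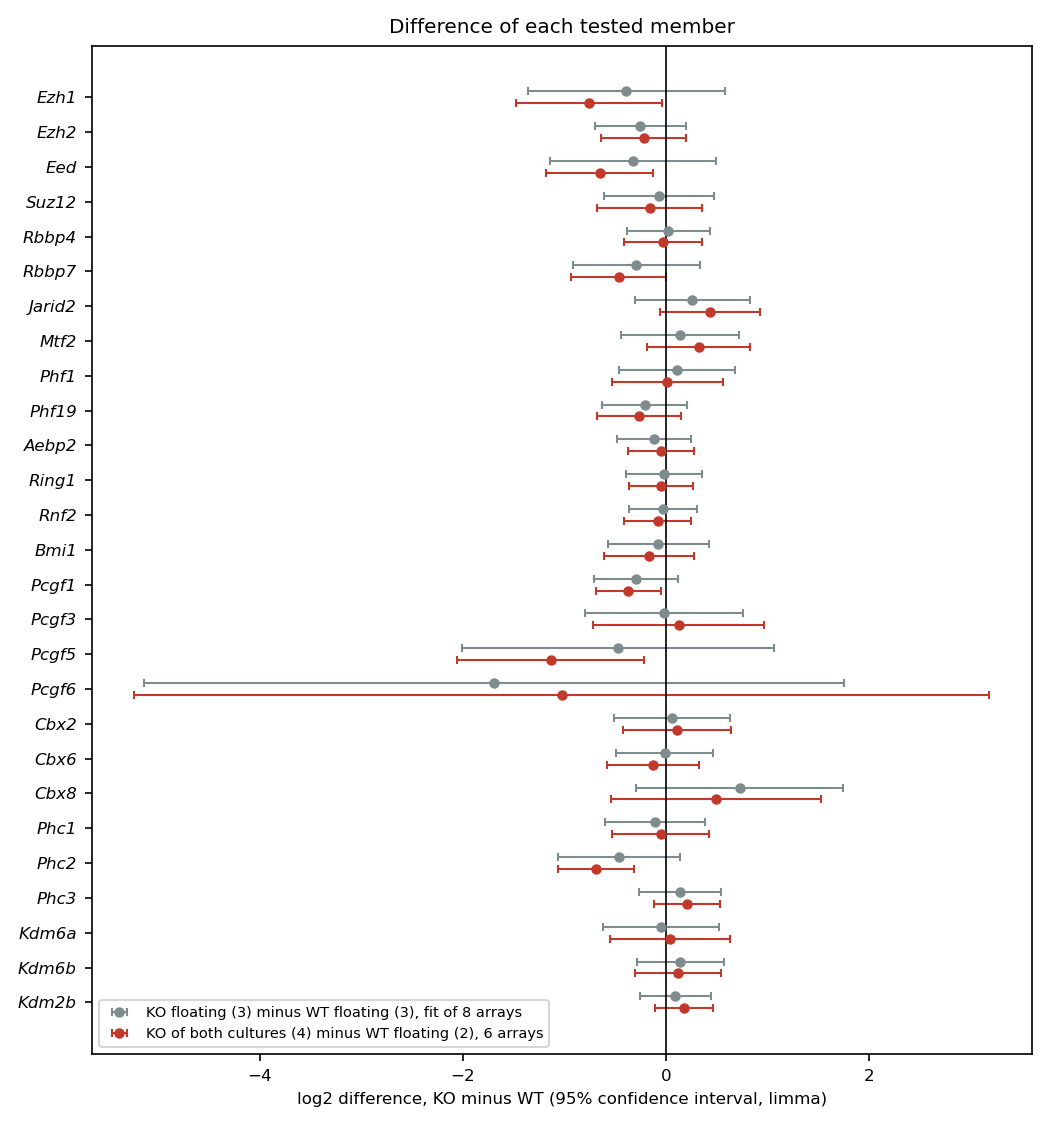
Difference between KO and WT in log2 units (horizontal axis) for the 27 members tested, one line per gene. Grey points give KO floating (3 arrays) minus WT floating (3 arrays) as labelled, red points give KO of both cultures (4 arrays) minus WT floating 1 and 3, and bars are 95% intervals from limma. The Phc2 interval in red lies below 0, and the bars of Pcgf6, Pcgf5 and Cbx8 are among the wide ones.

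The 6 core subunits of PRC2 were all measured. None was called in either comparison, and in the joined comparison all 6 differences were negative, with a median of -0.34. With all 8 arrays as labelled, 5 of 6 were negative and the median was -0.27. Of all features, 44.8% were positive in the joined comparison and 46.8% as labelled, with medians of -0.07 and -0.03. Beside these counts, the cell cycle list had 26 of 28 tested members with a negative difference in the joined comparison and a median of -0.40. Its part in the PRC2 values was not tested.

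Ezh2, the methyltransferase of dividing progenitors, had 2.09, 2.45 and 2.60 on WT floating 1, 2 and 3, 2.06, 2.23 and 2.09 on KO floating 1, 2 and 3, and 2.11 and 2.37 on KO adherent 1 and 2. The values of WT floating 1 lay among those of the KO arrays, and WT floating 3 was the highest of all. Its joined means were 2.12 ± 0.08 (SD, n = 4) for KO and 2.34 ± 0.36 (SD, n = 2) for WT, which differ by -0.22 (SE 0.17, 95% interval -0.64 to 0.20, limma adjusted p = 0.384). As labelled, the means of the floating groups were 2.13 ± 0.09 (SD, n = 3) for KO and 2.38 ± 0.26 (SD, n = 3) for WT, which differ by -0.25 (SE 0.19, 95% interval -0.70 to 0.20, limma adjusted p = 0.814). Both intervals stay within 2-fold in either direction, so a 2-fold reduction of the Ezh2 transcript lies outside them. Without WT floating 3 the joined difference turned to 0.03 (limma adjusted p = 0.932).

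Ezh1, the paralogue that prevails in cells that have left the cycle, had 3.73, 2.64 and 4.05 on WT floating 1, 2 and 3, 3.13, 2.54 and 3.59 on KO floating 1, 2 and 3, and 3.30 and 3.39 on KO adherent 1 and 2. The lowest arrays were KO floating 2 and WT floating 2, the same 2 arrays that were low in Nr4a1, whose part in the Ezh1 values was not tested. The joined KO and WT values did not overlap and Ezh1 differed by -0.75 (SE 0.30, 95% interval -1.47 to -0.03, limma adjusted p = 0.121). A second probe of Ezh1 had the same order at its ends, with -0.21 on KO floating 2 and 1.36 on WT floating 3, and the remaining probe was above background on 0 of 8 arrays.

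Eed, the subunit that binds trimethylated H3K27 and stimulates the enzyme, had 4.05, 3.33 and 4.11 on WT floating 1, 2 and 3, 3.55, 3.15 and 3.81 on KO floating 1, 2 and 3, and 3.21 and 4.22 on KO adherent 1 and 2. All 4 KO arrays of the joined comparison lay below both WT arrays, with a mean difference of -0.65 (SE 0.22, 95% interval -1.17 to -0.12, limma adjusted p = 0.0835). Among the arrays left out, KO adherent 2 had the highest Eed value of all 8, and WT floating 2 lay inside the KO range. Without KO floating 3 the Eed difference was -0.78 and passed the threshold (limma adjusted p = 0.0353), where 22.9% of all features were called.

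Suz12, which the complex needs for its stability, had 1.99, 1.80 and 2.35 on WT floating 1, 2 and 3, 1.94, 1.69 and 2.31 on KO floating 1, 2 and 3, and 2.11 and 2.23 on KO adherent 1 and 2. KO floating 2 and WT floating 2 were the lowest arrays and the groups overlapped. The joined difference was -0.16 (SE 0.21, 95% interval -0.67 to 0.36, limma adjusted p = 0.604).

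The histone-binding subunits Rbbp4 and Rbbp7 serve PRC2 and also other chromatin complexes. Rbbp4 had 4.87, 4.88 and 5.19 on WT floating 1, 2 and 3, 4.85, 4.99 and 5.18 on KO floating 1, 2 and 3, and 4.98 and 5.03 on KO adherent 1 and 2. Its range over all arrays was narrow, the groups overlapped, and the joined difference was -0.03 (SE 0.16, 95% interval -0.41 to 0.36, limma adjusted p = 0.907), with a sign that changed between settings. Rbbp7, which is X-linked, had 5.15, 4.81 and 5.45 on WT floating 1, 2 and 3, 4.82, 4.58 and 5.14 on KO floating 1, 2 and 3, and 4.80 and 5.44 on KO adherent 1 and 2. All 4 KO arrays of the joined comparison lay below both WT arrays, with KO floating 3 just under WT floating 1, and the difference was -0.46 (SE 0.19, 95% interval -0.93 to 0.01, limma adjusted p = 0.136).

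**Figure D2:**
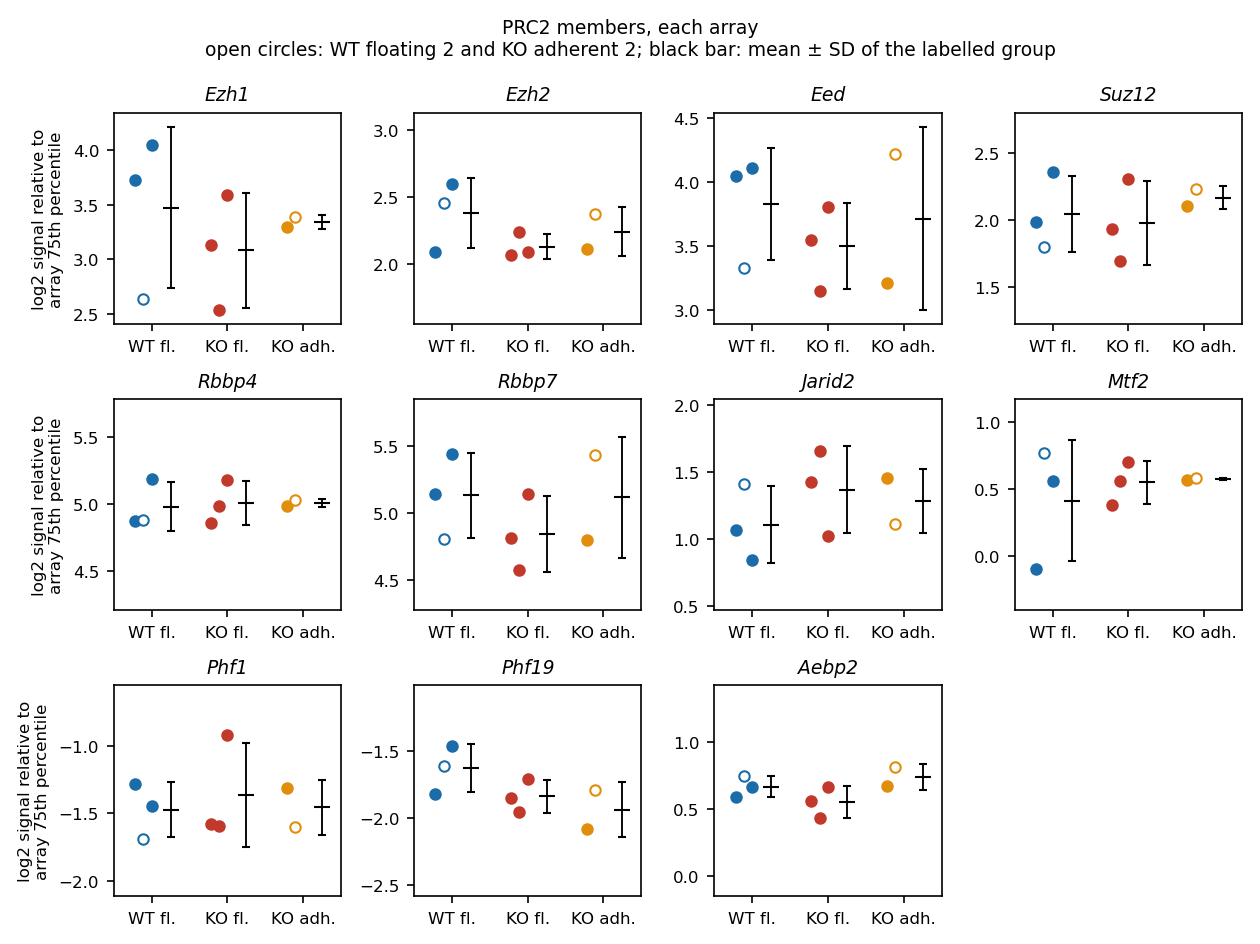
Level of each PRC2 gene on each array, as log2 intensity relative to the 75th percentile of the array (vertical axis), by labelled group (horizontal axis). Filled points are arrays, open circles mark WT floating 2 and KO adherent 2, and black bars are group means ± SD. Ezh1 and Eed show the open circle of WT floating 2 below the other WT arrays, while Rbbp4 is close to level.

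The 5 accessory subunits of PRC2 tested had 3 positive and 2 negative joined differences, with a median of 0.01, and none was called. Jarid2, which guides PRC2 to its targets in stem cells, had 1.07, 1.41 and 0.85 on WT floating 1, 2 and 3, 1.43, 1.66 and 1.03 on KO floating 1, 2 and 3, and 1.46 and 1.12 on KO adherent 1 and 2. It was lowest on WT floating 3 and highest on KO floating 2, and KO floating 3 lay between the WT arrays. The joined difference was 0.43 (SE 0.20, 95% interval -0.05 to 0.92, limma adjusted p = 0.168). The Polycomb-like proteins Mtf2, Phf1 and Phf19 bind DNA and bring PRC2 to CpG islands. Their joined differences were 0.32 (SE 0.21, limma adjusted p = 0.299) for Mtf2, 0.01 (SE 0.23, limma adjusted p = 0.969) for Phf1 and -0.26 (SE 0.17, limma adjusted p = 0.3) for Phf19. Aebp2, a zinc finger subunit, ranged only from 0.43 on KO floating 2 to 0.81 on KO adherent 2, with a joined difference of -0.05. A second Aebp2 probe ranged from -0.33 on KO floating 2 to 0.57 on WT floating 1, with a joined difference of -0.48 that was not tested by itself. Of 7 members with more than 1 probe above background on all arrays, 5 had the same sign of the joined difference for all such probes, and Rbbp4 and Bmi1 did not.

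E2F factors of the cell cycle are known to drive Ezh2 and other PRC2 genes, so the members' promoters were searched for E2F words. RefSeq promoter windows of GRCm38.p6, 250 bases before to 50 after a start, were held for 26 of the 29 members (37 windows). The words TTTCCCGC, TTTCGCGC, TTTGGCGC and TTTGCCGC, common forms of the E2F site, were searched on both strands. They were found in 3 of 37 member windows (8.11%) and in 744 of 32851 windows of all genes (2.26%). The words share their first and last letters, and no member window held more than 1 match. The windows of Ezh2 (chr6:47594981-47595280, minus strand), Suz12 (chr11:79992856-79993155, plus strand) and Phf19 (chr2:34913927-34914226, minus strand) are shown 5′ to 3′ with the match in capitals, since these were the members with one.
Ezh2: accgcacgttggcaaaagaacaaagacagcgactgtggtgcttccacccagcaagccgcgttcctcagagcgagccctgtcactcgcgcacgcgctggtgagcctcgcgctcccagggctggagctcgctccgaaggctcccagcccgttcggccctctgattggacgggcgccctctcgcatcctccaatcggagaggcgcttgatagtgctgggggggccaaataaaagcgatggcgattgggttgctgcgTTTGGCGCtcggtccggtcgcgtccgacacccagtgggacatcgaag
Suz12: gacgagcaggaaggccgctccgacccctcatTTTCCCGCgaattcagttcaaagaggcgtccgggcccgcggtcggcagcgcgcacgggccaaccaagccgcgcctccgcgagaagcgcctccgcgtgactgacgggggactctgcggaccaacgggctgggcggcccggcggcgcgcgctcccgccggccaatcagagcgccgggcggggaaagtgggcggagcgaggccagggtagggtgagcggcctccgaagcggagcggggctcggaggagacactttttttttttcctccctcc
Phf19: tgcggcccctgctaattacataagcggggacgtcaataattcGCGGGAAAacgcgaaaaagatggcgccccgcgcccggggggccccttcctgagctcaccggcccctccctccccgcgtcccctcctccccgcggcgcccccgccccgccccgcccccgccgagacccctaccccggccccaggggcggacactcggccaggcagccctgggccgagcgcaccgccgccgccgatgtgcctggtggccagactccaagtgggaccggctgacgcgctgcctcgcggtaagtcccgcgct
With the start counted as 0, the word begins at position 3 in Ezh2, at -219 in Suz12 and at -208 in Phf19, where it is the reverse complement of a word searched. The joined differences of these 3 genes were -0.22, -0.16 and -0.26, and none was called. Every word searched holds a CG pair. Member windows were rich in CG pairs, with a median of 24 against 7 over all windows. The shares of windows with a word thus compare windows of unlike CG content, and enrichment was not tested. A word match describes the letters and is no measurement of binding.

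PRC1 had 15 members, of which 13 were tested in the joined comparison, 4 with a positive and 9 with a negative difference (median -0.08). The 8 RING and PCGF genes give PRC1 its ubiquitin ligases and the PCGF subunit that sets which kind of PRC1 is formed. Of the 7 tested, 1 had a positive and 6 a negative joined difference, and none was called.

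Rnf2, the main ubiquitin ligase of PRC1, had 2.59, 2.63 and 2.63 on WT floating 1, 2 and 3, 2.54, 2.57 and 2.66 on KO floating 1, 2 and 3, and 2.36 and 2.38 on KO adherent 1 and 2. The floating arrays of both genotypes were close together and both adherent arrays were lower than all of them. KO adherent minus KO floating was -0.22 (SE 0.16, limma adjusted p = 0.99), and the joined genotype difference was -0.08 (SE 0.14, 95% interval -0.41 to 0.25, limma adjusted p = 0.696). Ring1, its paralogue, had -0.53, -0.79 and -0.55 on WT floating 1, 2 and 3, -0.68, -0.67 and -0.58 on KO floating 1, 2 and 3, and -0.45 and -0.63 on KO adherent 1 and 2. The groups overlapped, and the joined difference was -0.05 (SE 0.13, 95% interval -0.36 to 0.27, limma adjusted p = 0.798).

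Bmi1, the PCGF protein of canonical PRC1 that sustains self-renewal of neural stem cells, had 3.52, 3.38 and 3.86 on WT floating 1, 2 and 3, 3.58, 3.25 and 3.70 on KO floating 1, 2 and 3, and 3.57 and 3.87 on KO adherent 1 and 2. Its values overlapped between groups, with a joined difference of -0.16 (SE 0.18, 95% interval -0.60 to 0.28, limma adjusted p = 0.535). A second Bmi1 probe had 2.25 and 2.40 on WT floating 1 and 3 and 2.37 to 2.79 on the 4 KO arrays, so the 2 probes differed in sign.

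Pcgf5, the defining subunit of another variant PRC1, had 3.59, 1.60 and 3.75 on WT floating 1, 2 and 3, 2.68, 1.69 and 3.15 on KO floating 1, 2 and 3, and 2.61 and 3.58 on KO adherent 1 and 2. WT floating 1 and 3 and KO adherent 2 were high, WT floating 2 and KO floating 2 were low, and the others lay between. Its joined means were 2.53 ± 0.61 (SD, n = 4) for KO and 3.67 ± 0.11 (SD, n = 2) for WT, which differ by -1.14 (SE 0.38, 95% interval -2.06 to -0.21, limma adjusted p = 0.0848). Its second probe gave a near identical pattern, from 1.44 on WT floating 2 to 3.52 on WT floating 3. Without KO floating 2, where Nr4a1 was low too, the difference was -0.86 and passed the threshold (limma adjusted p = 0.0378). Pcgf5 passed as well without KO floating 3 and with the replicate number as a block (-0.80, adjusted p = 0.0352). That block also takes KO floating 2, the only array numbered 2 in the joined comparison, out of the difference. In these settings, in the order given, 23.6%, 22.9% and 19.2% of all features were called. Pcgf5, Pcgf1 and Pcgf6 are given in full because of their values.

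Pcgf1, the partner of Kdm2b in a variant complex, had -0.76, -1.08 and -0.84 on WT floating 1, 2 and 3, -1.04, -1.29 and -1.21 on KO floating 1, 2 and 3, and -1.12 and -0.85 on KO adherent 1 and 2. All 4 KO arrays of the joined comparison lay below WT floating 1 and 3, with a difference of -0.37 (SE 0.13, 95% interval -0.69 to -0.05, limma adjusted p = 0.0989). Of the arrays left out, WT floating 2 lay within the KO range and KO adherent 2 beside the WT arrays. Pcgf6, a subunit of a germline-gene repressing complex, had -0.14, 0.55 and 0.01 on WT floating 1, 2 and 3, 0.28, 0.53 and -5.46 on KO floating 1, 2 and 3, and 0.29 and -0.06 on KO adherent 1 and 2. Its single low array, KO floating 3, was the array with many isolated low probes. That array set the difference of -1.02 (SE 1.74, limma adjusted p = 0.685) in the joined comparison, which was 0.43 without it (adjusted p = 0.0987). Pcgf3 was well above background on 7 arrays, between -4.42 and -3.12 over all 8, with a joined difference of 0.13 (SE 0.35, limma adjusted p = 0.809). Pcgf2 was above background on 4 arrays and did not pass the filter of the joined comparison. It was tested with the floating groups of the 6 arrays, which it entered through KO adherent 1 alone, with a difference of 0.67 (SE 0.38, limma adjusted p = 0.325).

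The CBX and PHC genes complete canonical PRC1. Of 7, 6 were tested, with 3 positive and 3 negative joined differences and 1 call. Phc2, a Polyhomeotic protein whose SAM domain links PRC1 into larger assemblies, had 6.23, 5.79 and 6.34 on WT floating 1, 2 and 3, 5.48, 5.76 and 5.74 on KO floating 1, 2 and 3, and 5.43 and 6.18 on KO adherent 1 and 2. WT floating 1 and 3 and KO adherent 2 formed a high set, and the other 5 arrays a low one, with WT floating 2 the highest of the low set. The joined means of Phc2 were 5.60 ± 0.17 (SD, n = 4) for KO and 6.29 ± 0.08 (SD, n = 2) for WT. It fell by 0.69 on the log2 scale, which is 0.621 of the WT level (SE 0.15, 95% interval of the ratio 0.479 to 0.805, limma adjusted p = 0.0363), in 4 of 4 KO arrays against both WT arrays. As labelled, with all 8 arrays, the floating groups did not overlap either, but the difference was -0.46 (SE 0.26, limma adjusted p = 0.814) and did not pass. Phc2 was the single member of 27 (3.7%) without overlap there, against 8.4% of all features.

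The Phc2 call was not stable. It was lost with quantile normalization (-0.39, limma adjusted p = 0.154), with no filter on dim probes, with the slide row or the embryo's sex as a block, and without WT floating 1, WT floating 3, KO floating 1 or KO adherent 1, with adjusted p from 0.0233 to 0.216 over all settings. Its direction was the same in each of them. Markers of several cell types moved with the same arrays. The summed linear level of the 5 astrocyte markers was 223 to 391 on the 4 KO arrays and 80.9 to 86.3 on the 2 WT arrays, with 4 of 5 called higher, of which Aqp4 entered the test through KO alone, and Gfap called lower, and that of the 7 oligodendrocyte markers 130 to 192 against 45.6 to 48.5, with 3 called higher and 1 called lower. The 10 neural stem markers summed to 607 to 888 on the KO and 480 to 488 on the WT arrays, with 3 called higher and 2 lower. The 7 neuronal markers summed to 29.9 to 36.4 against 22.8 to 23.4. Of the 5 tested, 3 were called higher, of which Dcx entered through KO alone. Over all features of the joined comparison, 8.96% were called higher and 8.34% lower. The 30 cell cycle genes summed to 122 to 161 on the KO and 240 to 293 on the WT arrays. Bright genes weigh most in such sums, and Ccnd1 had 6.38 and 6.39 on these WT arrays and 3.41 to 4.74 on the KO arrays. The median joined difference of the 28 cell cycle genes tested was -0.40. The part of these shifts in the Phc2 value was not tested, and in bulk cultures fewer cells of a type and less RNA per cell cannot be told apart.

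Phc2 has 3 RefSeq starts on the plus strand of chromosome 4, and the files do not tell which one gives the transcript of the probe. The window with the fewest CG pairs (2, at chr4:128688488-128688787) and the one with the most (45, at chr4:128727321-128727620) are shown 5′ to 3′ with CG in capitals, since CpG islands are where variant PRC1 and PRC2 bind.
Phc2 window with few CG: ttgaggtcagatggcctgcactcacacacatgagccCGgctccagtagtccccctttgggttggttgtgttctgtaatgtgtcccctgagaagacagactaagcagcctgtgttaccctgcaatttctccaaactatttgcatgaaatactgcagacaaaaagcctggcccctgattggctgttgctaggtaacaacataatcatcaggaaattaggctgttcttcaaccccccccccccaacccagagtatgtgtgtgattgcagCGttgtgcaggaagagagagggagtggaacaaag
Phc2 window with many CG: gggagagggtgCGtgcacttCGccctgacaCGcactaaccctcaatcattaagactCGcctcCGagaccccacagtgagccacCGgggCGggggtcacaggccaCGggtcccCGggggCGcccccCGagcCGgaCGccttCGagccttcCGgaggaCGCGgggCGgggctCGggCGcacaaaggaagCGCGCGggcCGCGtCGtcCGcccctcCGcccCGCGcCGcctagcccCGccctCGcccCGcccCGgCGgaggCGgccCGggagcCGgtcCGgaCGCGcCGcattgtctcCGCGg
The remaining window (chr4:128654452-128654751) held 19 CG pairs, and no E2F word was found in any of the 3.

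Phc1 and Phc3, the paralogues of Phc2, had joined differences of -0.05 (SE 0.20, limma adjusted p = 0.866) and 0.21 (SE 0.14, limma adjusted p = 0.295). Phc2 was thus the single PHC gene called, but the difference between the 3 genes was not tested. Cbx2, a compacting reader of the H3K27 mark, had -0.99, -0.78 and -0.44 on WT floating 1, 2 and 3, -0.71, -0.87 and -0.45 on KO floating 1, 2 and 3, and -0.39 and -1.02 on KO adherent 1 and 2. Its groups overlapped and the joined difference was 0.11 (SE 0.22, 95% interval -0.43 to 0.64, limma adjusted p = 0.738). Cbx8, another CBX reader, had -0.06, -0.74 and 0.19 on WT floating 1, 2 and 3, 1.03, -0.43 and 0.98 on KO floating 1, 2 and 3, and 0.66 and 0.54 on KO adherent 1 and 2. KO floating 1 and 3 were high, while KO floating 2 lay within the WT range. The joined difference was 0.49 (SE 0.43, 95% interval -0.54 to 1.52, limma adjusted p = 0.424). It passed with the replicate number as a block (0.85, limma adjusted p = 0.0394) and without KO floating 2 (0.82, adjusted p = 0.0295). The block takes KO floating 2 out of the difference too, so these settings are not separate checks. They called 19.2% and 23.6% of all features. Cbx6, which prevails in brain, ranged from 4.17 on KO floating 1 to 4.68 on KO floating 3, with a joined difference of -0.13 (SE 0.19, limma adjusted p = 0.64). Cbx7 was well above background on 0 of the 8 arrays, and was not tested. Its readings were -6.32, -7.07 and -5.64 on WT floating 1, 2 and 3, -6.71, -6.19 and -5.92 on KO floating 1, 2 and 3, and -6.32 and -6.42 on KO adherent 1 and 2.

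**Figure D3:**
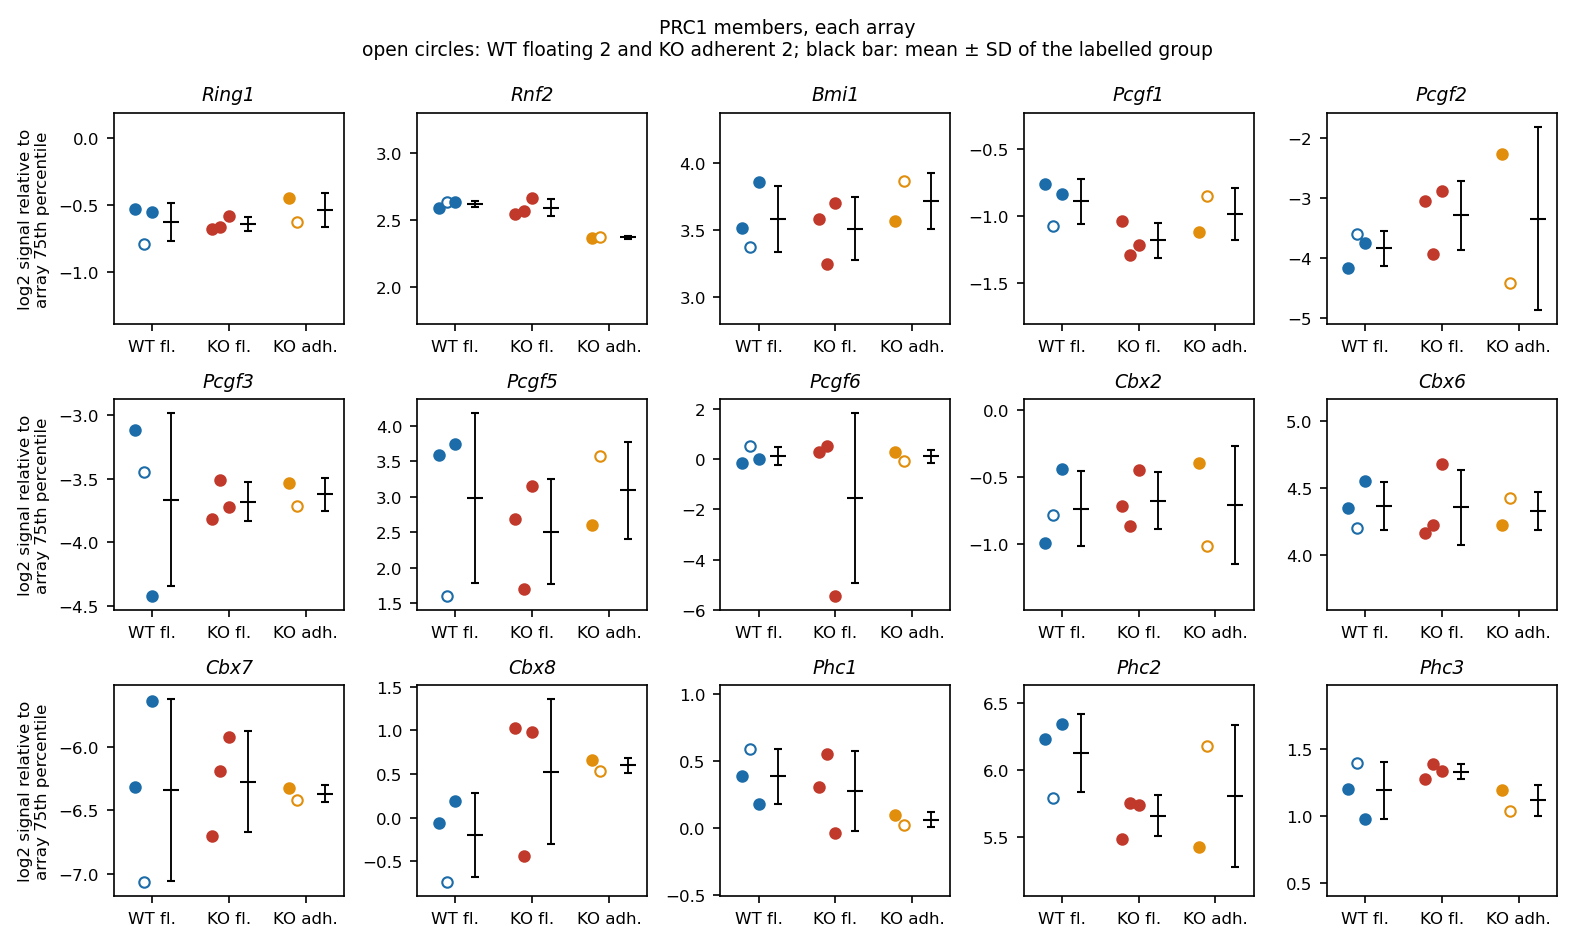
Level of each PRC1 gene on each array, as log2 intensity relative to the 75th percentile of the array (vertical axis), by labelled group (horizontal axis). Filled points are arrays, open circles mark WT floating 2 and KO adherent 2, and black bars are group means ± SD. The panel of Phc2 shows the KO floating arrays below all WT floating arrays, and that of Pcgf6 the single low value of -5.46 on KO floating 3.

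The 2 H3K27 demethylases were measured on all arrays and neither was called in any comparison. Kdm6a (UTX), an X-linked gene that escapes X inactivation, had -0.62, -0.19 and -0.25 on WT floating 1, 2 and 3, -0.20, -0.13 and -0.86 on KO floating 1, 2 and 3, and -0.37 and -0.43 on KO adherent 1 and 2. It was lowest on WT floating 1 and KO floating 3, the 2 arrays with Ddx3y above background, where Xist was at -6.27 on both. The joined difference was 0.04 (SE 0.24, 95% interval -0.55 to 0.63, limma adjusted p = 0.908), and it was -0.09 with sex as a block. Uty, the Y-linked relative of Kdm6a, was above background on those 2 arrays alone, at -2.41 and -3.34.

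Kdm6b (JMJD3), an inducible demethylase needed for neuronal differentiation, had 2.79, 2.68 and 2.93 on WT floating 1, 2 and 3, 3.14, 2.66 and 3.02 on KO floating 1, 2 and 3, and 3.08 and 3.01 on KO adherent 1 and 2. Both KO adherent arrays lay above all WT floating arrays, while KO floating 2 lay just under the lowest WT array. As labelled, KO minus WT floating was 0.14 (SE 0.18, 95% interval -0.29 to 0.57, limma adjusted p = 0.831), and the joined difference was 0.12 (SE 0.17, 95% interval -0.30 to 0.54, limma adjusted p = 0.633). A 2-fold rise lies outside both intervals. Kdm2b had 4.23, 4.48 and 4.31 on WT floating 1, 2 and 3, 4.46, 4.45 and 4.39 on KO floating 1, 2 and 3, and 4.51 and 4.50 on KO adherent 1 and 2. Its joined KO values lay above both WT arrays, with a difference of 0.18 (SE 0.12, 95% interval -0.11 to 0.47, limma adjusted p = 0.298) that did not pass. A second Kdm2b probe was at -6.13 on KO floating 3 and between -1.27 and -0.96 on all others, and KO floating 3 thus disagreed between the probes.

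**Figure D4:**
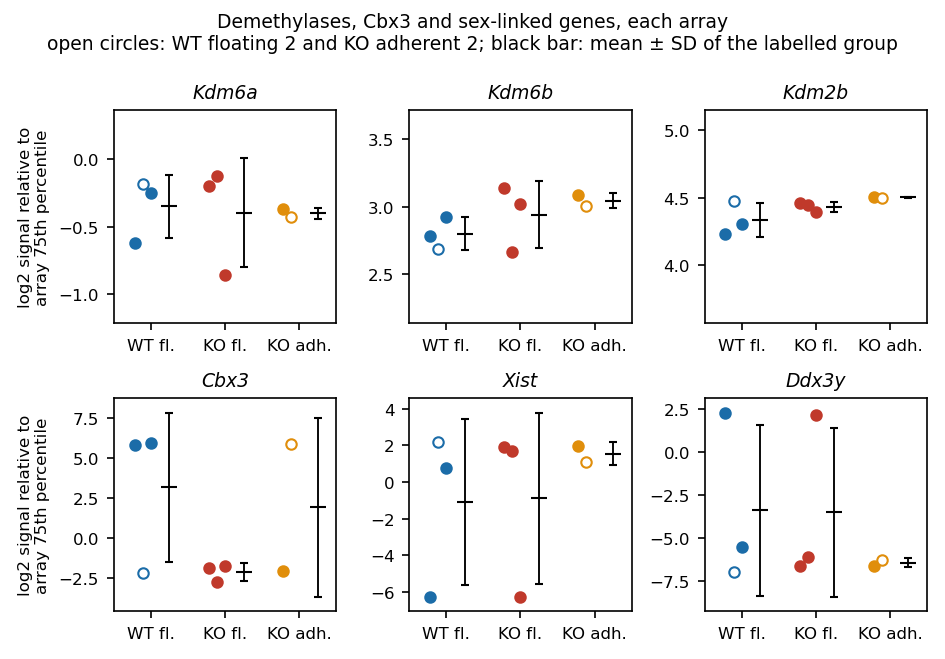
Level of the demethylases Kdm6a, Kdm6b and Kdm2b, of the targeted gene Cbx3 and of the sex-linked genes Xist and Ddx3y on each array, as log2 intensity relative to the 75th percentile of the array (vertical axis), by labelled group (horizontal axis). Filled points are arrays, open circles mark WT floating 2 and KO adherent 2, and black bars are group means ± SD. Cbx3 shows the 2 open circles on the opposite level from their groups.

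Culture was compared within KO cells, adherent against floating. As labelled, 0 of 27 members and 0% of 22705 features were called by limma, with 255 features at an unadjusted p under 0.05. The smallest adjusted p over all features was 0.216. The values did not overlap for 4 members (14.8%), Aebp2 and Kdm2b higher and Rnf2 and Phc3 lower in adherent culture, a share close to the 12.8% of all features. The interval of the difference lay within 2-fold for 22 of 27 members. KO adherent against WT floating, where culture and genotype differ together, also called 0 of 27 members, with 1 feature called (0.0044%). There 5 members did not overlap (18.5%, against 10.6% of all features): Kdm6b, Kdm2b and Cbx8 higher and Rnf2 and Phc1 lower in KO adherent. These directions rest in part on KO adherent 2, whose Cbx3 level opposed its label.

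The 2 arrays left out of the joined comparison were set against its group means. WT floating 2 lay nearer to the KO mean for 17 of 27 members (63%), and for 77.6% of all features. KO adherent 2 lay nearer to the WT mean for 18 of 27 members (66.7%), and for 72.3% of all features. For the 7 members without overlap, WT floating 2 was nearer to KO in 7, against 89.2% of all features without overlap, and KO adherent 2 nearer to WT in 5 (71.4%), against 79.8%.

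Further Polycomb genes, 36 on a list of partners, were tested for 32. In the joined comparison 13 had a positive and 19 a negative difference, and 1 was called (3.12%, against 17.3% of all features). It was Ezhip, an inhibitor of PRC2, which had -4.98, -3.20 and -4.67 on WT floating 1, 2 and 3, -3.49, -3.42 and -3.75 on KO floating 1, 2 and 3, and -3.70 and -4.80 on KO adherent 1 and 2. Ezhip was well above background on the 4 KO arrays and on neither WT array, so it entered the test through the group in which it was high and its call is no evidence of a change. The KO mean was 1.16 times the mean of the lowest signals of any probe well above background on the WT arrays. That level is not a detection limit of the Ezhip probe. The Ezhip reading on WT floating 2 was like that of the KO arrays and its reading on KO adherent 2 like that of WT. With all 8 arrays as labelled 0 of the 32 were called.

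Enzymes of the opposing marks, H3K4 methylation and H3K27 acetylation, made a list of 19, of which 17 were tested. In the joined comparison 11 had a positive and 6 a negative difference, and 2 were called, both higher (11.8%, against 17.3% of all features and 8.96% called higher). Kmt2c was 1 of them, and the other, Paxip1, entered the test through KO alone. Kmt2c (MLL3), a methyltransferase of enhancers that works in a complex with Kdm6a, had 2.50, 3.64 and 2.53 on WT floating 1, 2 and 3, 3.35, 3.68 and 3.37 on KO floating 1, 2 and 3, and 3.72 and 2.74 on KO adherent 1 and 2. It rose from 2.51 ± 0.02 (SD, n = 2) to 3.53 ± 0.20 (SD, n = 4), by 1.02 (SE 0.16, limma adjusted p = 0.0186). WT floating 2 lay with the KO arrays and KO adherent 2 near the WT arrays. Paxip1, a subunit of the same complex, was above background on the 4 KO arrays and on neither WT array, so its call is no evidence of a change. The Paxip1 KO mean was 1.92 times the mean of the lowest signals of any probe well above background on the WT arrays. That level is not a detection limit of the Paxip1 probe. The Kmt2c call was lost with no filter and without WT floating 1, WT floating 3, KO floating 1 or KO adherent 1 (difference 0.95 to 1.15, limma adjusted p up to 0.114). As labelled, with all 8 arrays, 0 of 17 were called.

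Cdkn2a and Cdkn2b, inhibitors of the cell cycle that Polycomb is known to repress in neural stem cells, share 1 locus. Cdkn2a had 4.99, 5.52 and 4.04 on WT floating 1, 2 and 3, 5.72, 5.44 and 5.89 on KO floating 1, 2 and 3, and 5.68 and 5.94 on KO adherent 1 and 2. It rose in the joined comparison from 4.52 ± 0.67 (SD, n = 2) to 5.68 ± 0.18 (SD, n = 4), by 1.17 (SE 0.28, limma adjusted p = 0.0403). Cdkn2b had 4.31, 2.64 and 4.07 on WT floating 1, 2 and 3, 3.45, 2.54 and 3.39 on KO floating 1, 2 and 3, and 3.04 and 4.69 on KO adherent 1 and 2. It fell from 4.19 ± 0.17 (SD, n = 2) to 3.11 ± 0.42 (SD, n = 4), by 1.08 on the log2 scale (SE 0.28, limma adjusted p = 0.0463). In the joined comparison these neighbours thus differed in opposite directions. Of the arrays left out, WT floating 2 lay within the KO range for both genes. KO adherent 2 had the highest value of all 8 arrays for both genes. Without WT floating 3, KO floating 1, KO floating 3 or KO adherent 1 the Cdkn2a call was lost, and without WT floating 1, WT floating 3, KO floating 1 or KO adherent 1 that of Cdkn2b, with limma adjusted p up to 0.202 for each. Among 11 other settings the Cdkn2a call was lost in 3, among them the replicate number as a block (limma adjusted p = 0.0571), and the Cdkn2b call in 5, among them quantile normalization (limma adjusted p = 0.0743). With all 8 arrays as labelled neither gene passed.

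Among cell cycle genes, 4 of 28 tested were called in the joined comparison, all lower (14.3%, against 17.3% of all features called and 8.34% called lower). Ccnd1, a G1 cyclin, differed by -2.31 (SE 0.35, limma adjusted p = 0.0165) and E2f1, an activator of S phase genes, by -1.44 (SE 0.38, limma adjusted p = 0.0493), and both fell. Mcm2, a replication licensing factor, had -0.58 (SE 0.17, limma adjusted p = 0.065) and Mki67, a proliferation marker, -0.05 (SE 0.32, limma adjusted p = 0.911), and neither passed. Both calls were lost without WT floating 1, WT floating 3 or KO floating 1, and that of E2f1 also without KO adherent 1. Among 11 other settings the E2f1 call was lost in 5, among them the replicate number as a block (limma adjusted p = 0.0677) and quantile normalization (limma adjusted p = 0.0587), and the Ccnd1 call in 1, with no filter. The Mki67 difference was 0.40 without WT floating 3. With all 8 arrays as labelled, 0 of 28 were called and 28 of 28 differences were negative. Of all features, 46.8% had a positive difference there.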

How the data were processed

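The deposited files hold spot intensity on a linear scale, made with Agilent Feature Extraction, version 11.0.1.1 per the file headers and 9.1.3.1 per the submitters' processing notes. Intensity in the authors' deposited table matched the processed signal within 0.01% for 99.2% of probes, so it is linear and neither centred nor normalized between arrays. Cyanine-3 cRNA was made from 200 ng RNA, per the labels' protocols.

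Outlier spots were left out, repeated spots averaged, and log2 values set relative to the 75th percentile of the array's non-control spots. The floor before log2 was 1. Accessions without versions matched 27235 of 55681 probes to 20660 genes in the RefSeq table of GRCm38.p6, and promoters are RefSeq's of that build. Probes were tested if all arrays of 1 or more groups had them well above background. The brightest probe stood for a gene, and unmatched probes were features of their own. Tests were limma 3.58.1 in R 4.3.3 (lmFit, eBayes, two-sided), with Benjamini-Hochberg adjustment over all features and a threshold of 0.05. The fits of KO floating against WT floating and of the joined comparison were first tested on simulated data. Those of KO adherent against KO floating and against WT floating were not. With so few arrays the precision is limited by their number, and p-values measure the spread between these samples.

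The members, the gene lists and the joined comparison were chosen with earlier results of these data known. Values on every array were to be printed for called members and for Ezh2, Ezh1, Eed, Suz12, Jarid2, Rbbp4, Rbbp7, Ring1, Rnf2, Bmi1, Cbx2, Cbx7, Cbx8, Kdm6a, Kdm6b and Kdm2b, with Cbx3, Cdkn2a and Cdkn2b, up to 6 called genes of each of the 2 chromatin lists, and Mki67, Ccnd1, E2f1 and Mcm2. Floating arrays of the same number had correlated deviations from the means of their groups. The correlations were 0.104, 0.59 and 0.334 over features for numbers 1, 2 and 3. Among arrays of different numbers, WT floating 1 with KO floating 3 reached 0.346 and WT floating 2 with KO adherent 1 reached 0.63. Same-number pairs with an adherent array had -0.63 to -0.0548. These correlations do not settle whether a number marks a pairing. The labels do not say what a number stands for. Other settings were quantile or median scaling, normexp with an offset of 50 on the median signal, the authors' table, other probe filters, the mean over probes, an intensity trend with robust eBayes, blocks of replicate number and slide row, leaving out each array and a minimum of 2-fold. A block of sex was added after the data were seen.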

Additional observations from a re-analysis of the deposited data

Results flagged for a closer look

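Each gene was checked for an array far from the others of its genotype label, among 30 genes over the 5 KO-labelled arrays. An array was taken up where its gap to the next value exceeded 0.71 of the whole range, a limit that chance passes in about 1 in 20 groups. Pcgf6 had -5.46 on KO floating 3, with the next value at -0.06 and a gap of 0.901 of the range. Kdm6b had 2.66 on KO floating 2, with the other 4 arrays at 3.01 to 3.14 and a gap of 0.722 of the range. Cbx3 had 5.91 on the array labelled KO adherent 2, with the other 4 at -2.76 to -1.75 and a gap of 0.884 of the range.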

How the results depend on the processing

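The counts of members called as labelled, for both adherent comparisons and for KO floating against WT floating 1 and 3 were 0 in 85 of 85 alternatives. They were 0 as well when 1 array was left out. In the joined comparison the count of 1 became 0 with quantile normalization, no filter, the slide row as a block, the sex block (added after the data were seen) and a 2-fold minimum. Leaving out single arrays gave 0 to 4 calls, with 0 without WT floating 1, WT floating 3, KO floating 1 or KO adherent 1. Without KO floating 2, 4 of 28 members were called (Pcgf5, Cbx8, Phc2 and Pcgf2), against 23.6% of all features. Pcgf2 entered through KO arrays alone, and its call is no evidence of a change. Without KO floating 3, 3 of 27 were called (Eed, Pcgf5, Phc2), against 22.9% of all features. With the replicate number as a block, 3 of 27 were called (Pcgf5, Cbx8, Phc2), against 19.2% of all features, while the 4 other counts stayed at 0. The member share was the smaller in each of these settings. KO floating 2 is the only array numbered 2 in the joined comparison, so that block takes it out of the difference. All features called, 3721, became 179 with no filter, 1379 with the sex block, 1845 at 2-fold or more, and 460 to 5380 over the runs that left out single arrays (460 without KO adherent 1, 632 without KO floating 1, 635 without WT floating 3, 903 without WT floating 1). The median of all features moved from -0.07 to -0.22 with no filter.

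Of 361 alternatives for 19 members, 341 kept the direction and 20 reversed it. In each reversed one the member was not past the threshold. Rbbp4 turned to 0.19 with quantile normalization, 0.0082 with median scaling, 0.0091 with the mean over probes and 0.024 with the replicate block. Rnf2 turned to 0.045 with quantile normalization. With the mean over probes Bmi1 was 0.042 and Kdm2b -0.51, and with the replicate block Suz12 was 0.00094 and Kdm6a -0.073. Kdm6a was -0.088 with the sex block. With 1 array left out the ranges were -0.17 to 0.39 for Cbx2, -0.14 to 0.23 for Kdm6a, -0.19 to 0.13 for Rbbp4, -0.47 to 0.034 for Ezh2, -0.34 to 0.025 for Suz12, -0.33 to 0.0067 for Bmi1 and -1.56 to 0.43 for Pcgf6; at the ends were WT floating 1 and WT floating 3, except KO floating 2 and KO floating 3 for Pcgf6. Outside the members, Mki67 turned to 0.076 with quantile normalization and ranged from -0.51 to 0.40 with 1 array left out.

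The arrays' number and the signal over background limit what can be seen: 4 members had no probe above background on all 8 arrays.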
